A study of Rattus norvegicus with 8 samples.

Results

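Immediate early genes, heat shock genes and the stress genes that cells switch on when a tissue is taken apart were followed in rat brain cells sorted at postnatal day 7. The set holds 40 genes of these kinds, each read through the probe sets annotated to that gene alone and averaged over them on the log2 scale. Of the 40, 36 were measured on chip A through 52 probe sets, among 10411 genes of that array type. On chip B 4 of the same 36 were measured (Fosl2, Jund, Nr4a3 and Hsph1), among 5667 genes. Btg2, Hspa1b, Hspa8 and Hsp90aa1 had no probe set annotated to them alone and have no value here.

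The cells were A2B5/OTMP+ oligodendrocytes of the perineuronal type per the labels, which means oligodendrocytes lying beside neuronal cell bodies. A2B5 is a ganglioside epitope carried by glial precursors, and OTMP is the other surface marker of the sort. The 4 biological replicates were each hybridised to chip A and to chip B, which makes 8 arrays of a single population with no control group. The deposited values are ratios to a reference that is not named, so 1 means equal to that reference and says nothing of how bright a probe set was. The labels do not give the number of animals behind a replicate, so p-values speak for these replicates only.

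Immediate early genes encode mostly transcription factors whose transcription starts within minutes of a stimulus from proteins already present, such as serum response factor and CREB. Heat shock chaperones hold damaged proteins in a soluble state and are switched on by heat shock factor. Enzymatic dissociation and sorting of brain tissue are known to induce both sets, together with chemokines, Gadd45 genes and feedback phosphatases, which is why these genes are read as signs of handling. In bulk RNA, fewer cells of a type and less RNA per cell cannot be told apart.

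Across genes, which are not independent, the replicates correlated at 0.704 to 0.786 (Pearson's r, chip A) and 0.702 to 0.749 (chip B). Pairs with replicate 3 lay at 0.704, 0.736 and 0.769 on chip A. Same-numbered arrays of the array types deviated together over 100 shared probe sets (r from 0.736 to 0.823, against -0.50 to -0.013 for unequal numbers). Of the markers measured on chip A, 10 of 13 astrocyte genes, 7 of 15 neuron genes and 4 of 14 oligodendrocyte lineage genes were above a ratio of 1 by limma (9.17% of all genes), and 12 of 17 microglia and macrophage genes were below it (32.9% of all genes). The lineage factors Olig1 (mean log2 ratio -0.07 ± 0.50, SD, n = 4) and Sox10 (-0.0012 ± 1.15) were not called, and Sox10 ranged from 0.401 to 2.57 between replicates. Replicate 3 stood apart in the genes described here, so the SDs, the counts of calls and the median levels are also given without it.

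The genes studied here had low ratios in replicate 3. They were chosen with earlier results of these data known, so the shares below are descriptions only. On chip A 26 of the 36 (72.2%) had their lowest ratio there, against 18.6% of all 10411 genes. Replicate 1 was lowest for 4 of the 36 (27.0% of all genes), replicate 2 for 2 (20% of all genes) and replicate 4 for 4 (34.4% of all genes). Replicate 3 was at least 1 log2 unit, a factor of 2, below each other replicate for 10 genes (27.8%), against 0.413% of all genes (43 genes). In replicates 1, 2 and 4, 0 of the 36 lay that far below the rest, against 0.25%, 0.202% and 0.163% of all genes. On chip B 2 of the 4 genes measured were lowest in replicate 3, against 16.0% of all genes. The median member stood 1.55-fold below the median of the other replicates in replicate 3, while the median of all genes lay 0.07 above on the log2 scale.

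**Figure D1:**
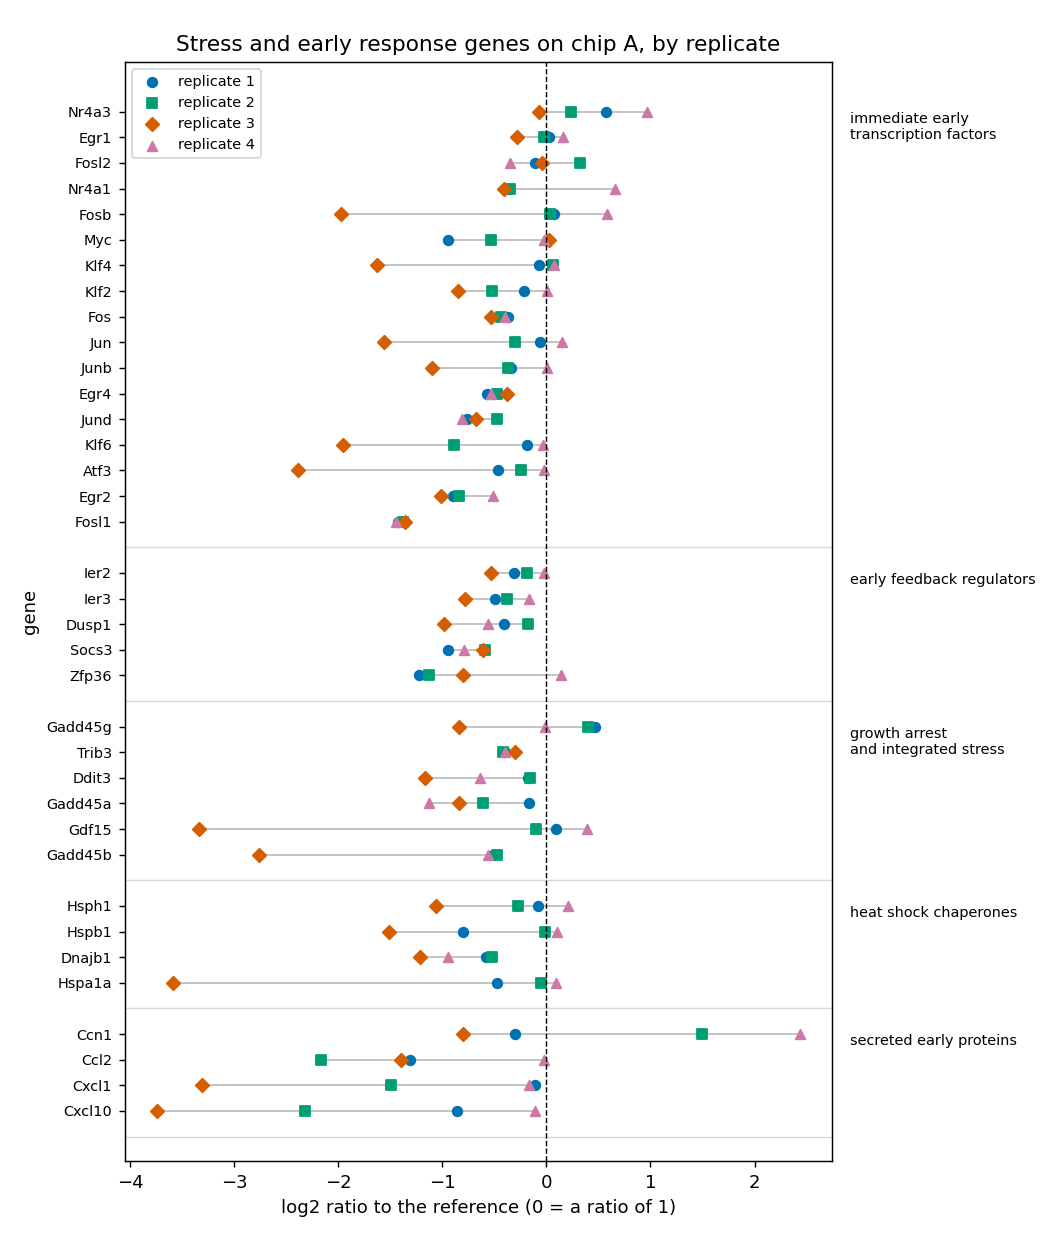
Log2 ratio to the reference (horizontal axis) of the 36 genes measured on chip A, by role, with a marker for each replicate and a grey line over the range. Replicate 3 lies leftmost for 26 genes and replicate 4 rightmost for 21.

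Replicate 4 lay at the other end. It held the highest ratio of 21 of the 36 genes (58.3%), against 18.4% of all genes, while replicate 3 was highest for 4 (11.1%), against 35.5%. The median log2 ratio of the 36 was -0.36, -0.37, -0.99 and -0.02 in replicates 1 to 4, and that of all genes -0.18, -0.13, -0.12 and -0.16. The median of the set thus shifted between replicates while that of all genes stayed within a narrow range. Their median SD over the 4 replicates was 0.47, against 0.20 for all genes, and 21 of the 36 were among the 10% of genes with the highest SD. Only 42 genes of chip A had an SD above 1, and 8 of them were members. Without replicate 3 the median SD was 0.25 for members and 0.18 for all genes, and replicate 4 was highest for 23 of the 36 (63.9%, against 26.3% of all genes). These are descriptions of 4 replicates, and a single replicate that differs from the other 3 has no test of its own.

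**Figure D2:**
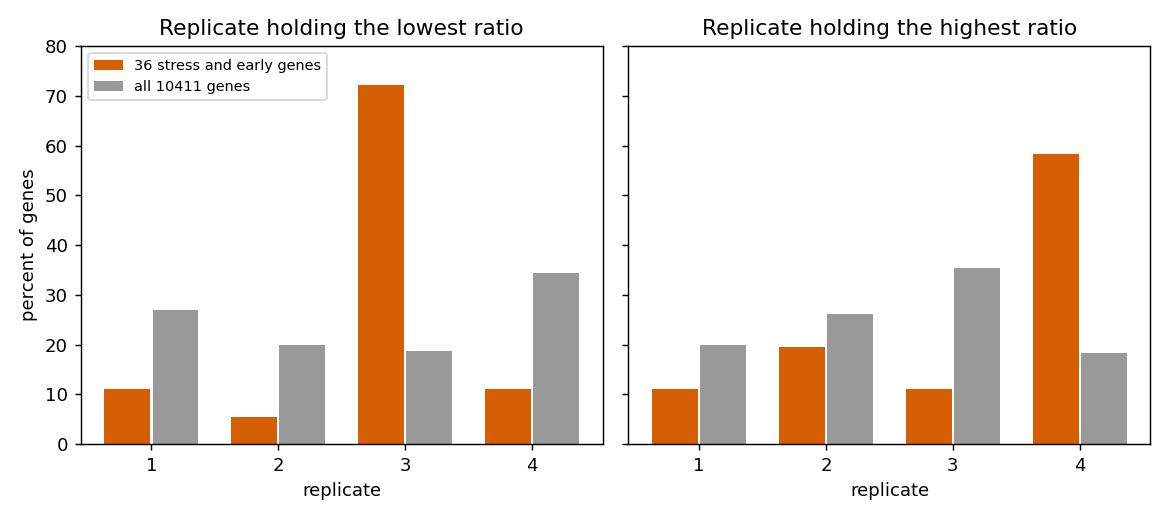
Percent of genes on chip A whose lowest (left) or highest (right) ratio fell in each replicate, for the 36 genes studied (orange) and for all 10411 genes (grey). Replicate 3 holds the lowest ratio of 72.2% of the genes studied and replicate 4 the highest of 58.3%, against 18.6% and 18.4% of all genes.

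The regulatory sequence ahead of some of these genes is known to carry the sites through which they are induced. RefSeq (GRCr8) promoter windows of 250 bases ending at the gene's start were found for 30 of the 40. The motifs looked for, on both strands and with overlaps allowed, were the heat shock pairs GAANNTTC and TTCNNGAA, the AP-1 site TGANTCA, the CREB site TGACGTCA, the ATF4 site TGATGCAA, the CArG box bound by serum response factor, and the kappaB site bound by NF-kappaB. Below are windows for a pair of chemokine genes and a pair of chaperone genes that were low in replicate 3, and for Egr2, whose SD was near the median of all genes. Matches are in capitals, and each window is written 5′ to 3′ on the gene's strand.
Cxcl1, chr14:17479322-17479571, minus strand: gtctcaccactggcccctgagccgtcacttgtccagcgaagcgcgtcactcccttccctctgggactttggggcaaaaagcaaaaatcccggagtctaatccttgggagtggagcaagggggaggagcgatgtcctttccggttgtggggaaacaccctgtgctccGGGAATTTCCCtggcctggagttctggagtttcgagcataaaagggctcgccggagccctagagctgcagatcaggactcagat
Cxcl10, chr14:15988816-15989065, plus strand: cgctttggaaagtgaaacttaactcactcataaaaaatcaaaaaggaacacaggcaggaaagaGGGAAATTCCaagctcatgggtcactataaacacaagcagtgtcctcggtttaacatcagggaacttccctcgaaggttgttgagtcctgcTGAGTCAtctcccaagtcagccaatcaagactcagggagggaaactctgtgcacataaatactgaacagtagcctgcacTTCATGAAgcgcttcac
Hspb1, chr12:26432302-26432551, minus strand: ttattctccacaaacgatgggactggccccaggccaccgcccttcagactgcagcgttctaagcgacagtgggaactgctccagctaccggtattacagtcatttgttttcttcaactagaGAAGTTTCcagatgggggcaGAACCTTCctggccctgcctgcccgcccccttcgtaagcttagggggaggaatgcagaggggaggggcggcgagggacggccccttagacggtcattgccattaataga
Hsph1, chr12:10427118-10427367, plus strand: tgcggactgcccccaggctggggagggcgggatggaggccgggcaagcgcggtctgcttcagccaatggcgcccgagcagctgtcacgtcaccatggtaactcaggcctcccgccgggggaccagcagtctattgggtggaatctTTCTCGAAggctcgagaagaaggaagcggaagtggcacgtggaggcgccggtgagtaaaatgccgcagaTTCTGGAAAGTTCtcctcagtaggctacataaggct
Egr2, chr20:21054442-21054691, minus strand: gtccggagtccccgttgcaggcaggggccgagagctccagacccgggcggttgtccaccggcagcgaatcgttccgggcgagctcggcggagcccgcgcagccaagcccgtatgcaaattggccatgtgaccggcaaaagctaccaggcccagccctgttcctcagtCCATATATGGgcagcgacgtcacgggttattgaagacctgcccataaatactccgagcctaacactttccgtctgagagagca
Cxcl1 holds a kappaB match read on both strands, and Cxcl10 a kappaB, an AP-1 and a TTCNNGAA match. Hspb1 holds 2 GAANNTTC matches, Hsph1 holds 2 TTCNNGAA matches with a GAANNTTC overlapping the second, and Egr2 holds a CArG box. Among all 33469 windows GAANNTTC was in 7.23%, TTCNNGAA in 7.48%, the CArG box in 1.497%, the kappaB site in 3.54%, TGANTCA in 6.34%, TGACGTCA in 1.59% and TGATGCAA in 0.693%. Among the 30 genes with a window they were found in 4 (Dnajb1, Hspa8, Hspb1 and Hsph1), 4 (Ccn1, Cxcl10, Hspa8 and Hsph1), 4 (Egr1, Egr2, Klf6 and Zfp36), 5 (Cxcl1, Cxcl10, Egr4, Nr4a1 and Socs3), 2 (Cxcl10 and Ddit3), 4 (Btg2, Dusp1, Ier2 and Jund) and 1 (Gadd45g), in that order. The windows of Hspa1a, Gdf15, Gadd45b, Fosb and Klf4, all lowest in replicate 3, held none of these motifs. A match describes letters in a window and does not show a site in use. A missing match holds only for the 250 bases before the annotated start and does not show that a gene lacks the site.

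Heat shock chaperones were all lowest in replicate 3, 4 of the 4 measured. Hspa1a, the inducible Hsp70 and the classic target of heat shock factor, had ratios of 0.722, 0.967, 0.0833 and 1.07 in replicates 1 to 4. Replicate 3 lay 11.6-fold below the median of the others, and its gap to the next lowest replicate ranked number 2 of all genes on chip A. Hspb1, a small heat shock protein, read 0.575, 0.990, 0.350 and 1.07. Hsph1, a nucleotide exchange partner of Hsp70, read 0.944, 0.828, 0.480 and 1.16. On chip B the Hsph1 ratios were 1.01, 0.704, 0.366 and 0.632, so the low value in replicate 3 was seen on both array types. Dnajb1, the Hsp40 that delivers clients to Hsp70, was lower than the reference at 0.670, 0.697, 0.430 and 0.519 (mean log2 ratio -0.82 ± 0.33, SD, n = 4, limma adjusted p = 0.00518). The other chaperones did not pass against a ratio of 1 (limma adjusted p from 0.167 to 0.294).

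Chemokines and secreted early proteins had the highest median SD of the roles (1.51). Cxcl10, a chemokine for T cells, read 0.550, 0.200, 0.0748 and 0.926, a mean log2 ratio of -1.76 ± 1.61 (SD, n = 4, limma adjusted p = 0.0582). Without replicate 4 it stood at -2.31 and passed (limma adjusted p = 0.0316). Cxcl1, a neutrophil attractant, read 0.926, 0.356, 0.101 and 0.890. Both chemokines were thus low in replicate 2 and lower still in replicate 3, while replicate 4 lay near the reference. Ccl2, a monocyte attractant, had another order, 0.404, 0.223, 0.380 and 0.986, with its lowest value in replicate 2. It was lower than the reference (-1.22 ± 0.89, SD, n = 4, limma adjusted p = 0.0296), a call that was lost without replicate 1, 2 or 3 (0.0812, 0.0590 and 0.0900). Ccn1, a matricellular protein and target of serum response factor, was the widest on the high side, at 0.814, 2.82, 0.573 and 5.41. Its mean log2 ratio of 0.71 ± 1.52 did not pass (limma adjusted p = 0.353), and replicates 1 and 3 lay below 1 and replicates 2 and 4 above.

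Among the growth arrest and integrated stress genes the same replicate stood low. Gdf15, a secreted stress cytokine, had ratios of 1.07, 0.931, 0.0990 and 1.31. Replicate 3 lay 10.8-fold below the median of the others and had the largest gap to the next lowest replicate among the genes of chip A. Gadd45b, a stress sensor that activates p38 and JNK signalling, read 0.700, 0.718, 0.148 and 0.680. Gadd45g of the same family read 1.38, 1.32, 0.560 and 0.991, and Ddit3 (CHOP), the factor of the unfolded protein response, 0.882, 0.896, 0.446 and 0.642. In each of these 4 genes replicate 3 was the lowest. Gadd45b was not called with all replicates (limma adjusted p = 0.0849) and was lower than the reference without replicate 3 (-0.52, 0.00905), and Ddit3 was lower without replicate 2 (-0.66, 0.0489). Gadd45a was ordered differently, at 0.893, 0.657, 0.559 and 0.458, and was lower than the reference (-0.68 ± 0.41, SD, n = 4, limma adjusted p = 0.0190), a call lost without replicate 3 (0.0658) or 4 (0.0535). Trib3, a pseudokinase induced by ATF4 and CHOP, was even and lower than the reference, at 0.759, 0.751, 0.814 and 0.761 (limma adjusted p = 0.00667).

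The immediate early transcription factors divided into wide and narrow genes. In 5 of the 17, replicate 3 was at least 1 log2 unit below each other replicate. Fosb, an AP-1 subunit, read 1.05, 1.03, 0.255 and 1.498. Atf3, a stress-induced repressor, read 0.727, 0.842, 0.191 and 0.983. Klf4, a zinc finger factor, read 0.955, 1.05, 0.324 and 1.05. Outside replicate 3 these 3 genes ranged from 0.727 (Atf3) to 1.498 (Fosb). Jun, the core AP-1 subunit, averaged 0.961, 0.813, 0.339 and 1.11 over 3 probe sets, and each probe set had its lowest ratio in replicate 3 (0.399, 0.275 and 0.355). Klf6 averaged 0.878, 0.542, 0.258 and 0.977, and both of its probe sets had replicate 3 lowest and replicate 2 next. Junb, another AP-1 subunit, read 0.788, 0.775, 0.468 and 1.01.

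**Figure D3:**
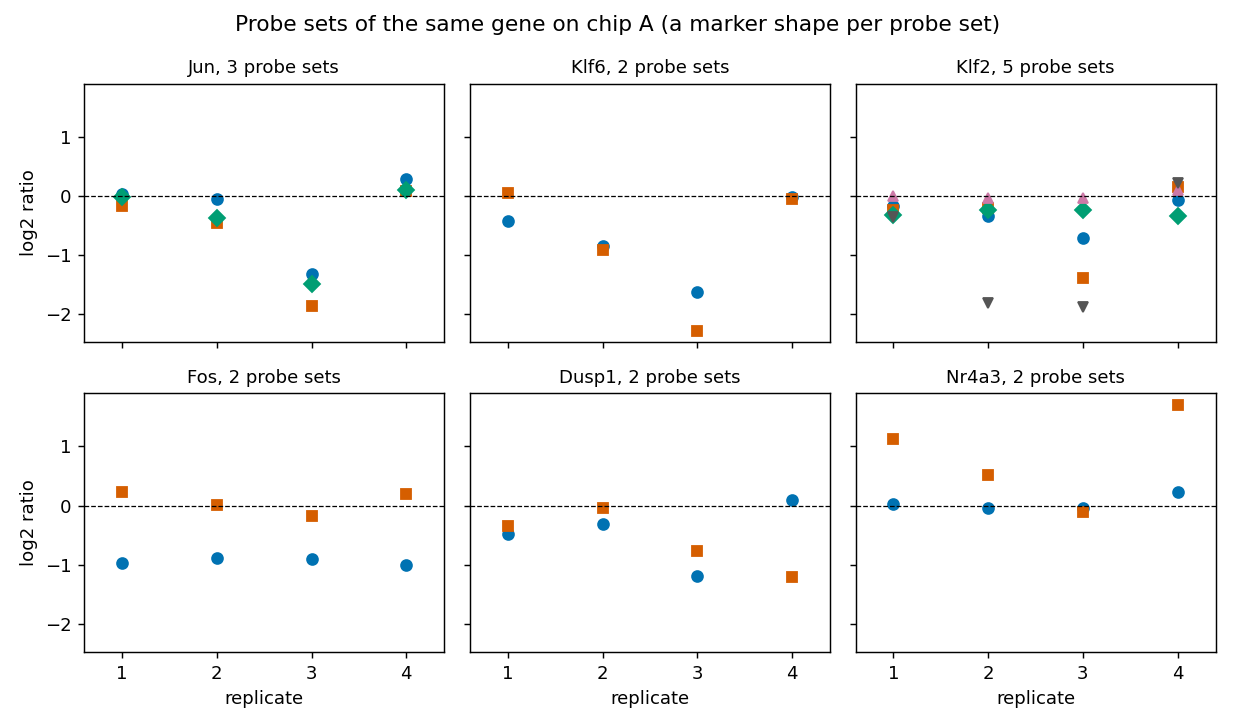
Log2 ratio (vertical axis) of each probe set on chip A for 6 genes with several probe sets, by replicate, with a marker shape for each probe set. The 3 Jun and the 2 Klf6 probe sets are lowest in replicate 3, and a Fos probe set with a mean of -0.94 is even.

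Members of the same families did not share this range. Fos, the best known immediate early gene, averaged 0.774, 0.737, 0.690 and 0.759 over 2 probe sets. The Fos probe sets disagreed in level, at mean log2 ratios of -0.94 and 0.07. The lower was nearly constant (0.508, 0.541, 0.537 and 0.501). A control probe set for the bacterial gene phe read much the same (0.512, 0.546, 0.565 and 0.509). Whether the lower Fos probe set was above background is thus unknown. The higher read 1.179, 1.004, 0.887 and 1.15, with its lowest ratio in replicate 3, so the narrow range of the average rests in part on the lower. The mean of both was called lower (-0.44 ± 0.07, SD, n = 4, limma adjusted p = 0.00437). With the higher probe set alone the call was lost (0.624) and the sign turned. Egr1, a zinc finger factor of the same first wave, lay at the reference with 1.015, 0.985, 0.822 and 1.12. Fosl2 (Fra-2) also lay near it on chip A, at 0.927, 1.25, 0.970 and 0.783, but its chip B probe set read 0.893, 0.529, 0.377 and 1.0. For Fosl2 the array types thus differed in the order of the replicates. Fosl1 (Fra-1) was the evenest of the called members, at 0.373, 0.386, 0.391 and 0.368 (-1.40 ± 0.04, SD, n = 4, limma adjusted p = 0.00012).

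Egr2, needed for myelination in peripheral nerve, was lower than the reference at 0.536, 0.560, 0.497 and 0.702 (-0.81 ± 0.21, SD, n = 4, limma adjusted p = 0.00172). Egr4 was lower too (0.671, 0.719, 0.771 and 0.690; limma adjusted p = 0.0031). The Egr2 probe sets differed in range. An even one read 0.493, 0.528, 0.528 and 0.58, and the other 0.582, 0.594, 0.468 and 0.849, with its lowest ratio in replicate 3. Jund, the constitutive AP-1 subunit, averaged 0.589, 0.721, 0.627 and 0.571 (-0.68 ± 0.15, SD, n = 4, limma adjusted p = 0.0017), with probe sets at -1.15 and -0.21, and lost its call with the higher one (0.212). The lower Jund probe set read 0.437, 0.465, 0.471 and 0.431, near a control for the bacterial gene thr (0.427, 0.455, 0.46 and 0.42). Whether that probe set was above background is thus unknown. On chip B Jund read 0.536, 0.896, 0.786 and 1.07 and did not pass (0.217). Trib3 likewise lost its call with its highest probe set (0.242).

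Orphan nuclear receptors of the early response were highest in replicate 4 on chip A. Nr4a1 (Nur77) read 0.780, 0.787, 0.755 and 1.58, and was called lower only without replicate 4 (-0.37, limma adjusted p = 0.0280). Nr4a3 (Nor-1) averaged 1.48, 1.18, 0.950 and 1.95, from probe sets of unequal range: 2.17, 1.43, 0.927 and 3.24 in the wider, and 1.01, 0.968, 0.973 and 1.18 in the other. Nr4a3 did not pass with all replicates (0.42 ± 0.45, SD, n = 4, limma adjusted p = 0.103) and did without replicate 3 (0.59, 0.0438). Its chip B probe set read 1.09, 1.33, 1.0 and 0.969, with replicate 4 the lowest there. Klf2, a factor of quiescent cells, averaged 0.860, 0.696, 0.555 and 1.01 over 5 probe sets, of which the widest read 0.783, 0.285, 0.271 and 1.16 and another 0.996, 0.978, 0.974 and 1.07. Without replicate 4 it was lower than the reference (-0.53, limma adjusted p = 0.0471). Myc, which drives growth and proliferation, ran the other way: 0.520, 0.691, 1.02 and 0.984, with its highest value in replicate 3.

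Of 5 early feedback regulators measured 4 were lower than the reference, where 32.9% of all genes were. After centring each array on its median, Dusp1, Ier3 and Zfp36 lost their call and Socs3 kept it. Dusp1, a phosphatase that switches off MAP kinases, averaged 0.754, 0.886, 0.507 and 0.678 (-0.53 ± 0.34, SD, n = 4, limma adjusted p = 0.0269). Its probe sets differed in replicate 4, at 1.07 and 0.431, and with either of them alone the call was lost (limma adjusted p = 0.131 and 0.0642). The Dusp1 call was also lost without replicate 1 (0.0578) or 4 (0.0824). Zfp36 (tristetraprolin), which speeds the decay of cytokine mRNAs, read 0.427, 0.459, 0.573 and 1.10 (-0.75 ± 0.62, SD, n = 4, limma adjusted p = 0.0473), a call lost without replicate 1, 2 or 3 (0.139, 0.121 and 0.12). Socs3, an inhibitor of cytokine receptor signalling, was even at 0.518, 0.665, 0.657 and 0.576 (-0.73 ± 0.17, SD, n = 4, limma adjusted p = 0.0016). Ier3, an early gene linked to cell survival, read 0.708, 0.770, 0.583 and 0.890 and was lower (limma adjusted p = 0.0222), a call lost without replicate 1 (0.0716) or 3 (0.0525). Ier2 read 0.804, 0.878, 0.693 and 0.987 and did not pass (0.0855).

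Counted together, 13 of the 36 genes on chip A (36.1%) were lower than the reference and 0 were higher by limma. Of all genes on chip A 32.9% were lower and 9.17% higher, so the share of lower genes was near that of the array. Without replicate 3, 10 of the 36 were lower and 1 was higher, against 3076 and 835 of all genes. After centring each array on its median, all genes gave 2558 lower and 1284 higher calls, against 3426 and 955. At an unadjusted p under 0.05, 6 further members lay below 1 and 0 above. The share of all genes at that threshold was not counted on either array type, so such counts say nothing particular to the members. The median of the members' mean log2 ratios was -0.51 against -0.14 for all genes. By role it was -0.44 for transcription factors (5 of 17 lower), -0.53 for feedback regulators (4 of 5), -0.61 for growth arrest and integrated stress genes (2 of 6), -0.69 for chaperones (1 of 4) and -1.25 for secreted proteins (1 of 4). Without replicate 3 the median of the members was -0.34, and by role, in the same order, -0.24, -0.38, -0.36, -0.19 and -0.84. On chip B 0 of 4 were called in either direction (30.9% of all genes lower, 4.13% higher), with 1 at an unadjusted p under 0.05.

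After centring each array on its median 8 of the 13 were still called, without Ccl2, Dusp1, Gadd45a, Ier3 and Zfp36. The 57 control probe sets on chip A ranged from -1.34 to 1.03 in mean log2 ratio with a median SD of 0.12. Their median was -0.09, but several bacterial controls had low, even ratios, with mean log2 ratios of -1.18 (thr), -0.91 (phe) and -0.73 (lys). Other probe sets for the same bacterial genes lay near 0, such as -0.06 (phe). Another control probe set for thr read 0.388, 0.417, 0.413 and 0.382. That level and evenness were near those of Fosl1 (0.373, 0.386, 0.391 and 0.368). The ratios carry no detection call, so whether transcripts with even low ratios were above background is unknown and was not tested. Among members this limit applies to Fosl1, Egr4, the lower Fos and Jund probe sets and the lowest Trib3 probe set.

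Other genes of the early response followed in part. Of 44 further early response genes on chip A, 26 (59.1%) were lowest in replicate 3, and their median log2 ratio there was -0.83 against -0.40, -0.38 and -0.17 in replicates 1, 2 and 4. Examples, chosen after their values were seen, were Cebpb, a stress-responsive factor (0.952, 0.911, 0.351 and 0.919), Plk2, a kinase of the early response (1.003, 1.40, 0.447 and 0.980), and the small GTPase gene Rhob (0.938, 0.726, 0.384 and 0.945). By limma 21 of the 44 were lower than the reference and 1 higher, beside 32.9% and 9.17% of all genes, the shares against which the counts of the further lists on chip A are also to be read. The largest differences were those of Dusp4 (-1.44 ± 0.05, SD, n = 4, limma adjusted p = 0.000121), Trib1 (-1.31 ± 0.09, 0.000138; not called on chip B at -0.06) and Cebpd (-1.07 ± 0.09, 0.000203). Spry2, an inhibitor of receptor tyrosine kinase signalling, was higher (0.72 ± 0.22, 0.00288). Dusp4 read 0.359, 0.381, 0.382 and 0.356, near the bacterial thr control that read 0.388, 0.417, 0.413 and 0.382. Whether Dusp4 was above background is thus unknown. The same limit applies to other even low genes of the further lists, such as Hspb3 and Mapk9.

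Chaperones and stress genes outside the set are given next. Of 40 further heat shock and chaperone genes 8 were lowest in replicate 3, a share near the 18.6% of all genes, and their medians were -0.24, -0.28, -0.26 and -0.34. In that list 15 were lower and 0 higher, led by Hspb3 (-1.08 ± 0.07, limma adjusted p = 0.000174), Dnajb4 (-0.98 ± 0.47, 0.00783) and Hspe1 (-0.67 ± 0.18, 0.0025). Of 40 further integrated, unfolded protein and oxidative stress genes 10 (25.0%) were lowest there. In a separate count, 10 of the 40 were lower than the reference by limma. Among them were Ppp1r15a (-0.76 ± 0.56, 0.0338), Cdkn1a (-0.74 ± 0.21, 0.00225) and Atf4, the main factor of the integrated stress response (-0.74 ± 0.09, 0.000693). Higher were the serine synthesis gene Phgdh (0.50 ± 0.15, 0.00558) and the amino acid transporter gene Slc7a5 (0.49 ± 0.27, 0.0203).

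Genes upstream of the early response had a small SD, with a median of 0.15 against 0.20 for all genes. Of 18 signalling and transcription factor genes on chip A 6 (33.3%) were lowest in replicate 3, against 18.6% of all genes. Their median log2 ratio was -0.29, -0.16, -0.38 and -0.07 in replicates 1 to 4. In this list 8 were lower and 0 higher, led by Mapk9 (JNK2, -0.95 ± 0.05, limma adjusted p = 0.000224, but -0.02 and not called on chip B), Camk4 (-0.90 ± 0.13, 0.000467) and Atf2 (-0.65 ± 0.09, 0.00116). Of 27 further cytokine and inflammatory genes 8 (29.6%) were lowest in replicate 3 and 13 (48.1%) were highest there, against 18.6% and 35.5% of all genes. Cxcl2, a close relative of Cxcl1, was among the lowest at 0.505, 0.472, 0.163 and 1.01. In the inflammatory list 11 were lower, led by Socs1 (-1.003 ± 0.06, 0.0002), Il1b (-0.95 ± 0.44, 0.00719) and Cxcl9 (-0.84 ± 0.51, 0.0187), and 2 were higher, Vcam1 (1.53 ± 0.35, 0.000576) and Cx3cl1 (0.64 ± 0.48, 0.0377).

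Chip B held few genes of these lists. Its largest lower values were those of Nfkbiz, an early regulator of NF-kappaB (0.457, 0.434, 0.281 and 0.476; -1.31 ± 0.35, SD, n = 4, limma adjusted p = 0.00222), Creb1 (-1.27 ± 0.06, 8.3e-05, but -0.09 and not called on chip A), Atf6 (-1.13 ± 0.15, 0.000345), Dnajb6 (-0.97 ± 0.14, 0.000495) and Cxcl9 (-1.39 ± 0.04, 6.2e-05). Slc7a11, a cystine transporter gene, was higher (0.35 ± 0.14, 0.0175). On chip B the bacterial thr control read 0.388, 0.403, 0.411 and 0.416. Cxcl9 (0.364, 0.386, 0.387 and 0.388) and Creb1 (0.407, 0.395, 0.429 and 0.433) lay near it, so whether they were above background is unknown. Over all lists of further genes 65 of 169 on chip A were lower (38.5%, beside 32.9% of all genes) and 5 higher. On chip B 17 of 45 were lower (37.8%, beside 30.9%) and 1 higher.

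**Figure D4:**
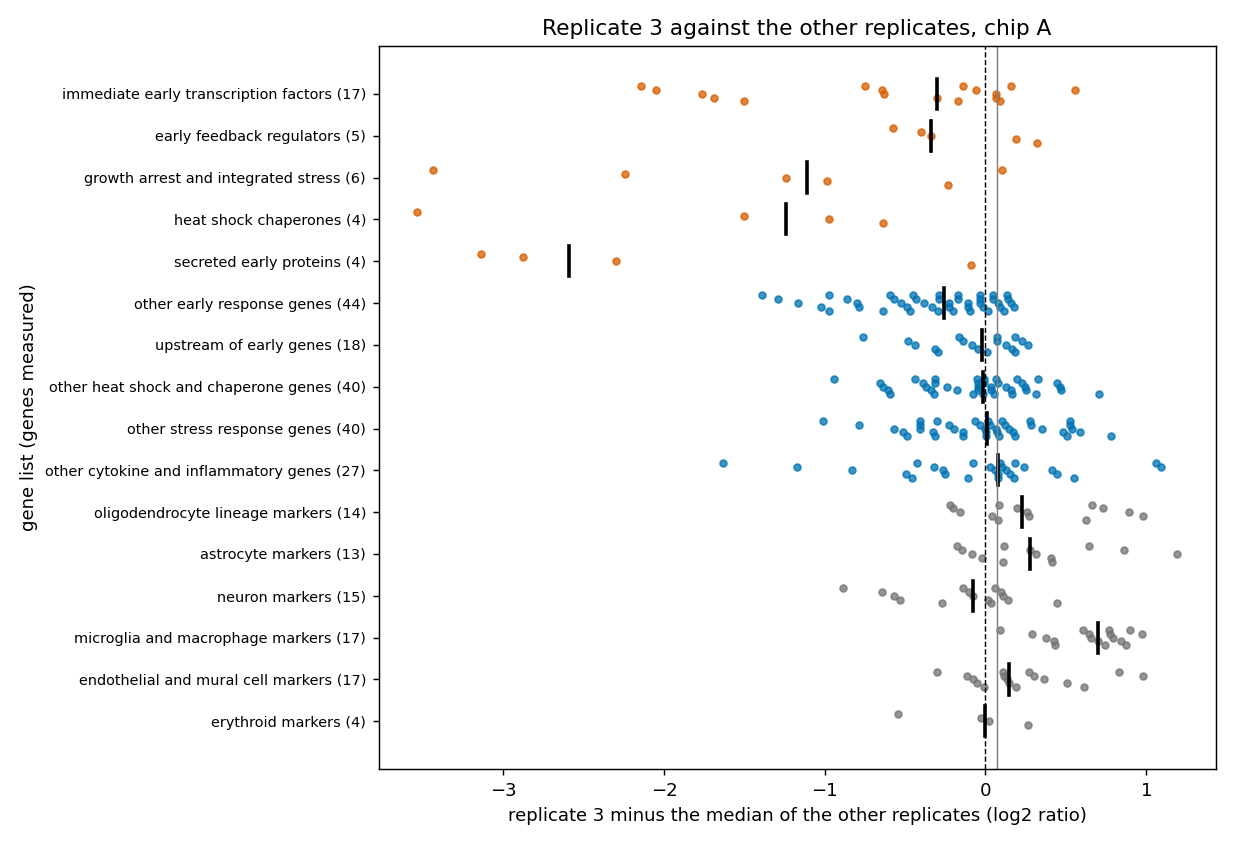
Replicate 3 minus the median of the other 3 replicates (log2 ratio, horizontal axis) for each gene of each list on chip A, with black bars at list medians and a grey line at the median of all genes (0.07). All secreted early proteins and chaperones and 5 of 6 growth arrest and integrated stress genes (Trib3 is the exception) lie left of 0, and all 17 microglia and macrophage markers right of it.

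Among the planned cell type marker lists on chip A, that of microglia and macrophages had the largest shift in replicate 3. Of 17 microglia and macrophage markers 15 had their highest ratio in replicate 3 and 0 their lowest, with median log2 ratios of -0.67, -0.83, -0.05 and -0.78 in replicates 1 to 4. Tyrobp, a microglial adaptor, read 0.731, 0.536, 0.998 and 0.522. In replicate 3 these markers were thus high where the stress genes were low. Endothelial and mural cell markers were lowest in replicate 1 (12 of 17) and 0 were lowest in replicate 3. Of oligodendrocyte lineage markers 2 of 14 were lowest in replicate 3, of astrocyte markers 2 of 13, of neuron markers 2 of 15 and of erythroid markers 1 of 4. Of all genes on chip A 18.6% were lowest in replicate 3. Choroid plexus epithelium genes are a list written after the values were seen, so they are a description only. Of these, 9 of 12 were lowest in replicate 3, and their median ratio was 1.41, 2.53, 0.999 and 2.06 in replicates 1 to 4. The part of any of these cell types in the low stress genes of replicate 3 was not tested.

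Of the 10 genes of chip A with the largest gap between replicate 3 and the next lowest replicate, 6 were members (Gdf15, Hspa1a, Gadd45b, Fosb, Atf3 and Cxcl1), where members are 0.346% of the genes. Of the first 30, 9 were members, and of the first 100, 14. Because members were chosen with earlier results of these data known, these shares are descriptions only. The others in the first 10 were Col8a2, Cldn2, Slco1a5 and Rgs16. Cldn2, a claudin of choroid plexus epithelium, read 6.29, 12.1, 1.42 and 22.5, so it lay above the reference in all 4 replicates, unlike the stress genes. Rgs16, an early inducible regulator of G protein signalling, read 0.816, 1.04, 0.235 and 0.961, low in replicate 3 alone.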

How the data were processed

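Per the labels' protocols, total RNA of the sorted cells went through Qiagen extraction and Affymetrix labelling for small inputs. The submitters' processing notes name RMA, with no version. Per the labels and files, the authors deposited linear ratio values and stated no reference. They were put on the log2 scale, and 57 control probe sets per array type were set aside. Genes came from the platform annotation: 12783 chip A and 7564 chip B probe sets had 1 symbol, 312 and 100 several, 2771 and 7612 none. Of the single-gene IDs 12748 and 7524 were in the RefSeq table for GRCr8, and 0 symbols were updated. Probe sets of a gene were averaged.

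Mean log2 ratios were tested against 0 by limma 3.58.1 (R 4.3.3, intercept, eBayes, two-sided), with Benjamini-Hochberg adjustment over all genes of an array type at 0.05, and the test was run on simulated data. Values in full are those of members called with a mean of at least 0.5 in size, the 5 widest and the 3 nearest the reference, and others as each role is described; pathway genes are the 3 largest called in each direction. Array number limits precision. Members and lists were chosen with earlier results of these data known.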

Additional observations from a re-analysis of the deposited data

Results flagged for a closer look

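In 6 of the 36 genes on chip A, 1 replicate lay apart from the other 3 by Dixon's criterion (the gap over the range, at the 95% level). Chance gives about 1 in 20, and 5.22% of all genes on chip A met it. Replicate 3 was the low one for Hspa1a (0.0833), Gdf15 (0.099), Gadd45b (0.148) and Klf4 (0.324). Replicate 4 was the high one for Nr4a1 (1.582), and replicate 3 for Trib3 (0.8136), whose 4 ratios span a narrow range. No gene of the 4 on chip B met it, against 7.01% of all genes there.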

How the results depend on the processing

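No paired analysis was possible because there is 1 cell population, and the equal replicate numbers join chip A to chip B arrays of the same sample, between which no test was made. The 13 lower calls among the 36 members on chip A were 8 after centring, 8 with each gene's highest probe set and 1 with a smallest difference of 0.5 (Fosl1), and 13 with a trended, robust prior. Of all 10411 genes 3426 were lower, and in the same order 2558, 2803, 870 and 3408. Leaving out 1 replicate gave 9 to 14 lower and 0 to 1 higher members (Nr4a3), against 2678 to 3076 lower and 716 to 883 higher of all genes. Of further genes, those higher on chip A were 5, or 9 after centring, and on chip B 1, or 0 to 2 with 1 replicate left out. Of the uncalled members, only the 5 widest and the 3 nearest the reference were checked for a change of sign. Among these it changed for Gdf15 (-1.1144 to 0.1283 with 1 replicate left out), Gadd45g (-0.15 to 0.2858), Egr1 (0.0877 after centring, -0.0944 to 0.0535 with 1 left out) and Fosl2 (0.0716, -0.1687 to 0.0554). Fosb and Klf4 were outside this check. Fosb was below 1 in replicate 3 alone (0.255), and Klf4 read 0.955, 1.045 and 1.054 in replicates 1, 2 and 4. The share of members lowest in replicate 3 was 72.2%, and 63.5% over probe sets. Quantile-normalized ratios, added after the data were seen, kept the shares within 1.5 times, where all genes had 24.2% lowest in replicate 3.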
